A study of Mus musculus with 3 samples.

Results

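The genes described here are 10 receptor tyrosine kinases, *Pdgfra*, *Pdgfrb*, *Met*, *Kit*, *Axl*, *Fgfr1*, *Fgfr2*, *Igf1r*, *Ddr1* and *Ddr2*, taken as a list of gene symbols out of 22911 genes that the arrays named. Their mRNA was measured in 3 mouse cancer cell lines: Colon26, a colon adenocarcinoma line, and its sublines LuM1, labelled high-metastatic, and NM11, labelled low-metastatic. All are of female BALB/c origin and grew in RPMI1640 medium with serum and antibiotics, and the labels name no treatment or engineered allele. After 3 days of culture, 0.1 µg of total RNA of each line was labelled with 1 dye and hybridized to 1 array, all 3 on the same slide and scanned together. The study compared the lines to find genes that differ with metastatic and aggregative behaviour.

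Receptor tyrosine kinases are membrane proteins, most of which pair up when a ligand binds outside the cell, and the paired chains then phosphorylate one another inside it. The phosphorylated tails recruit adaptor proteins that start the Ras-ERK and PI3K pathways, and phosphatases and ubiquitin ligases end the signal. The PDGF receptors mark mesenchymal cells, the hepatocyte growth factor receptor Met drives scattering and invasion of epithelial cells, and the DDR kinases are unusual in that their ligand is collagen.

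A value in the text is a scaled signal, which is the brightness of a probe's spot after each array was brought to the same 75th percentile, 585.1. The ± value is the scanner software's own error, a small constant added to 10.0% of the signal, and covers technical error only. A spot that the software did not call well above background gives no level, and a ratio against it is a bound, written as at least so many-fold and taken against the lowest signal well above background there (26.4 on the Colon26, 20.1 on the LuM1 and 19.6 on the NM11 array) or the dim signal itself where that was higher. Since each line has 1 array, no difference has a replicate check and none was tested, and a cell line cannot be told apart from its culture or its array. The number of arrays limits how precise the values are. The 3 comparisons share arrays, so they are not independent of one another.

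The arrays carried 19 probes for the 10 genes, of which 17 were well above background on all 3 arrays. Every gene but *Kit* was measured in each line by its brightest probe, the one with the highest mean log2 signal, whose ratio is used where a gene is counted. Each probe was printed once per array, and no spot of theirs was an outlier. Several probes for a gene read a single RNA sample and are not replicates, and signals of different probes are not compared with one another. Of all 56605 probes, 49.9% to 53.8% were well above background on an array, and no spot was saturated.

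Most of the receptors differed little between the lines, and *Pdgfra* stood apart. Its signal on the LuM1 array was 18.2 times that on the Colon26 array, and none of the other 8 measured genes differed by 2-fold in that comparison. Against all named genes, of which 13.1% of 14182 were at least 2-fold higher and 11.8% at least 2-fold lower in LuM1 than Colon26 cells, 1 of 9 and 0 of 9 receptors were so. In NM11 cells *Pdgfra* was at least 2-fold higher and *Ddr1* at least 2-fold lower than in Colon26 cells, beside 8.34% and 7.89% of 13832 genes. Between the sublines, *Pdgfra* was at least 2-fold higher and *Met* at least 2-fold lower in LuM1 than NM11 cells, beside 11.1% and 8.5% of 14411 genes. Each of these shares of 1 in 9 is close to the background.

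By direction alone, 2 of the 9 measured receptors were higher and 7 lower in LuM1 than Colon26 cells, with a median log2 ratio of -0.29 against -0.13 over all measured genes. Of these 7, *Met*, *Axl* and *Ddr1* were lower under each alternative that gave a value, whereas *Pdgfrb*, *Fgfr2*, *Igf1r* and *Ddr2* turned to the higher side in the authors' processed values. In NM11 cells 5 receptors were higher and 4 lower than in Colon26 cells, with medians of 0.36 and -0.02. Scaling to *Hprt* turned *Fgfr2* and *Ddr2* of the 5, and the mean over probes turned *Igf1r* of the 4. In LuM1 cells 3 were higher and 6 lower than in NM11 cells, with medians of -0.13 and -0.11. Scaling to *Hprt* turned *Axl*, *Fgfr1*, *Igf1r* and *Ddr2* of the 6, and the mean over probes turned *Fgfr2* and *Igf1r*. Of the 6, only *Met* kept its direction under every alternative. The differences of 7, 7 and 5 receptors in these comparisons exceeded the scanner error.

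**Figure D1:**
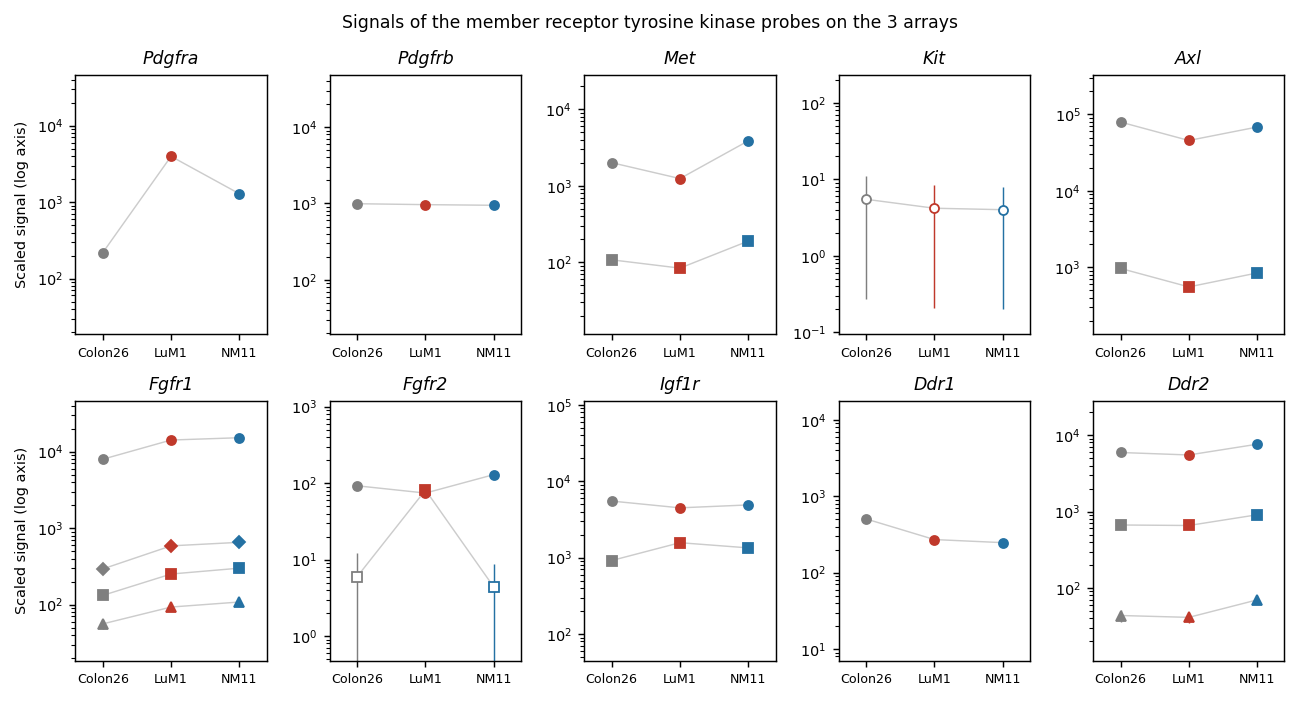
Scaled signal of each probe of the 10 receptors (log axis, every panel of the same height in log units) in Colon26 (grey), LuM1 (red) and NM11 (blue) cells, 1 array each, with a symbol per probe and thin lines joining it. Bars are the scanner error, often smaller than the symbol and cut off near 0 for dim spots, and open symbols are spots not well above background. *Pdgfra* rises from 218 to 3965 in LuM1 cells, *Pdgfrb* stays between 947 and 993, and *Kit* is open on every array.

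*Pdgfra* encodes the PDGF receptor alpha, which binds PDGF-A, -B and -C. Its single probe (A_51_P345649, RefSeq NM_011058) had a scaled signal of 218 ± 22.6 in Colon26 cells, 3965 ± 397 in LuM1 cells and 1286 ± 129 in NM11 cells. Both sublines thus lay above the parental line, and LuM1 above NM11. The level in LuM1 cells was 18.2-fold that in Colon26 cells, log2 4.18 at a scanner error of 0.21, and 3.08-fold that in NM11 cells (log2 1.62). The level in NM11 cells was 5.90-fold that in Colon26 cells (log2 2.56). Of 12397 genes measured on both the LuM1 and the Colon26 array, 94 had a ratio at least as high, *Pdgfra* included, which is 0.758%. Across 11 alternatives the LuM1 over Colon26 ratio lay between 15.1-fold and 24.8-fold, and the LuM1 over NM11 ratio between 3.06-fold and 4.64-fold.

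*Pdgfra* is on mouse chromosome 5, and the genes around it in the RefSeq gene table are *Gsx2* on one side and *Kit* and *Kdr* on the other. Neither *Kit* nor *Kdr*, which encodes a VEGF receptor, rose above background in any line, so no ratio can be given for the receptor genes beside it. Since *Pdgfra* and *Met* were the receptors past 2-fold between the sublines and moved in opposite directions, the 250 bases before one annotated start of each are shown, from RefSeq on the assembly GRCm38.p6. Both lie on the plus strand, *Pdgfra* at chr5:75152001-75152250 and *Met* at chr6:17463707-17463956. Capitals mark the GC box, GGGCGG or CCGCCC.
*Pdgfra*: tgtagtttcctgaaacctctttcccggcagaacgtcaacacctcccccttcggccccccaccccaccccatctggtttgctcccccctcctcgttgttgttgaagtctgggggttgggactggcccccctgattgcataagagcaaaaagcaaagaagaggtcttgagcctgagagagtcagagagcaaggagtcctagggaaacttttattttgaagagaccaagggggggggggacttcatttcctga
*Met*: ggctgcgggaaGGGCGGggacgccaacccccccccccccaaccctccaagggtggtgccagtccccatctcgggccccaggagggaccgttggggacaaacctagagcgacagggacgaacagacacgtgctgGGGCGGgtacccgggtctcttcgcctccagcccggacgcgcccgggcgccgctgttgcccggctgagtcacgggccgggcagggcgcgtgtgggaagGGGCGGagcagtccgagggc

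The *Pdgfra* window held 4 CpG dinucleotides and was 54.4% G or C, and 37.8% of the 32851 promoters in the RefSeq table have fewer CpGs in a window of this length, whose median is 6. The *Met* window held 24 CpGs and was 74.0% G or C, more CpGs than 88.0% of promoters, and it held 3 GC boxes. The *Pdgfra* window had no GC box. Neither had a TATA box (TATAAA or TTTATA) or a CCAAT box (CCAAT or ATTGG). Over all promoters, searched on both strands, 32.7% held a GC box, 12.4% a TATA box and 33.8% a CCAAT box. A match of letters is a description of the window and does not show that a factor binds there.

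*Pdgfrb*, the PDGF receptor beta, which binds PDGF-B and -D, was flat. Its probe (A_51_P150964) had scaled signals of 993 ± 99.5 in Colon26, 966 ± 96.7 in LuM1 and 947 ± 94.8 in NM11 cells. The ratios were 0.972 for LuM1 and 0.954 for NM11 over Colon26 and 1.02 for LuM1 over NM11, all within the scanner error, and the first of these turned to the higher side without scaling, after quantile normalization, when scaled to *Hprt* and in the processed values of the authors. The gene next to it, *Csf1r*, a receptor tyrosine kinase of macrophages and of the same structural family, was as even, at 682 ± 68.5, 691 ± 69.2 and 675 ± 67.6. The labelled origin of the cells from a colon adenocarcinoma was set against markers, because PDGF receptors are mesenchymal. Of 10 colon epithelium markers, *Cdh1*, *Krt18*, *Krt19*, *Vil1*, *Cdx1* and *Cldn3* were well above background on no array, and *Krt8*, *Krt20* and *Cdx2* on all. Of 10 mesenchyme markers, 7 were well above background in Colon26 and 9 in each subline. The summed signals of those well above background lay between 439126 and 575465, but *S100a4* (270498 to 345490) and *Vim* (80065 to 102137) were the largest parts on each array. The sum therefore does not show how the other markers moved. The brightest-probe signals of *Dcn* (decorin) and *Thy1* were 27503 and 19560 in LuM1 and 9599 and 15416 in NM11 cells, and not well above background in Colon26 cells. *Col3a1* (3.98-fold and 9.04-fold in LuM1 and NM11 over Colon26) and a dimmer *Acta2* probe, A_52_P420504 (36.3-fold and 33.8-fold), were higher in both sublines too. Other markers of the list were lower in LuM1 or differed little: *Col1a2* fell from 59896 to 49.6 and *Col1a1* was 2.19-fold lower in LuM1 than Colon26 cells, the second *Fap* probe was at least 8.48-fold lower there and the brightest 1.12-fold lower, and *Vim*, *S100a4* and the brightest *Acta2* probe had LuM1 over Colon26 ratios of 0.784, 1.1 and 0.948. The Colon26 spots of both *Fap* probes lay in a cluster of spots bright on that array alone. The part of the mesenchyme markers in the *Pdgfra* difference was not tested. In RNA from whole cultures, fewer cells of a type and less RNA per cell cannot be told apart.

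The PDGF ligands moved in different directions. *Pdgfa*, whose product binds only the alpha receptor, had a scaled signal of 9617 ± 962 in Colon26, 14633 ± 1463 in LuM1 and 4863 ± 486 in NM11 cells with its brighter probe. The level was highest in LuM1 and lowest in NM11, 3.01-fold apart (log2 1.59), and the dimmer probe gave 2.86-fold. *Pdgfb*, whose product binds both receptors, was well above background in LuM1 cells alone, at 1336 ± 134. Its level there was above that of Colon26 cells by at least 50.6-fold and above that of NM11 cells by at least 68.3-fold. *Pdgfc* had the opposite pattern, with 5438 ± 544 in Colon26 and 1257 ± 126 in NM11 cells and no signal well above background in LuM1 cells. In LuM1 cells it was at least 270-fold below Colon26 cells and at least 62.5-fold below NM11 cells. *Pdgfd* was well above background on no array. The LuM1 array thus had the highest signals of *Pdgfra*, *Pdgfa* and *Pdgfb* and the lowest of *Pdgfc*.

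**Figure D2:**
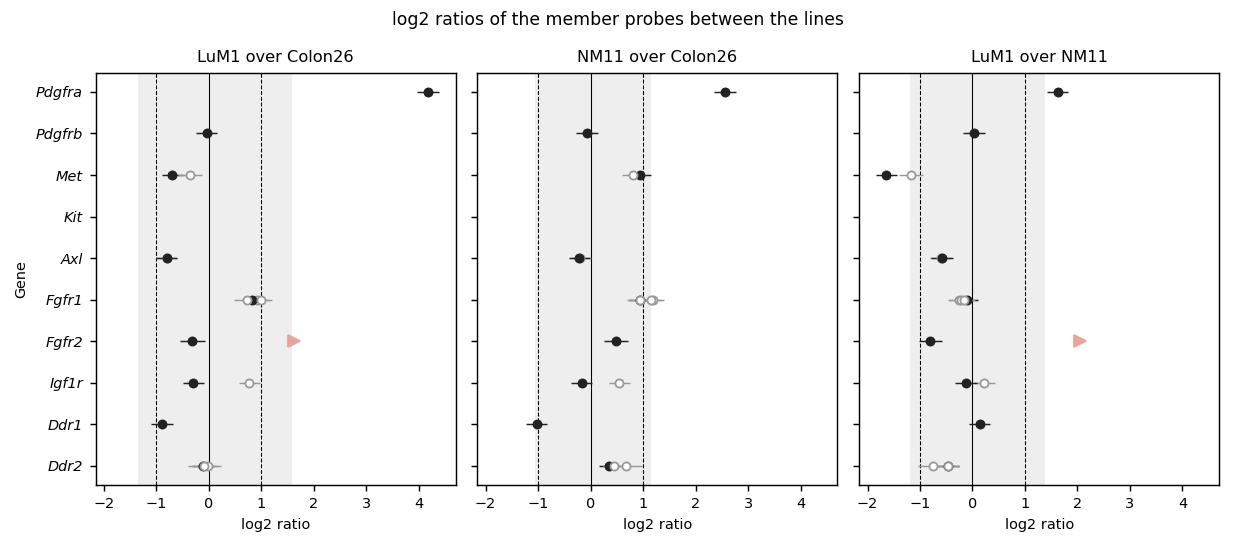
log2 ratios of the receptors in the 3 comparisons, 1 array per line. Filled points are a gene's brightest probe, open points its other probes, bars the scanner error, arrows a bound, dashed lines 2-fold, and the grey band the 5th to 95th percentile of all measured genes. *Pdgfra* lies beyond the band in each panel, at 4.18, 2.56 and 1.62, and *Met* lies below it between the sublines, at -1.64.

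*Met* was lowest in LuM1 and highest in NM11 cells. Its brighter probe (A_52_P656418, RefSeq NM_008591) had scaled signals of 2009 ± 201 in Colon26, 1245 ± 125 in LuM1 and 3876 ± 388 in NM11 cells. The level in LuM1 cells was 3.11-fold below NM11 cells, log2 -1.64 at a scanner error of 0.20, and the dimmer probe (A_55_P2830865) gave 2.26-fold. Both probes kept the order NM11, Colon26, LuM1. Against Colon26 cells, the brighter probe was 1.61-fold lower in LuM1 (log2 -0.69) and 1.93-fold higher in NM11 cells (log2 0.95), and the dimmer one 1.28-fold lower and 1.76-fold higher. Among 12851 genes measured on both subline arrays, 2.20% had a ratio of LuM1 over NM11 at least as low, and over 11 alternatives this ratio lay between 0.321 and 0.483. The gene is on chromosome 6 next to *Cav1*, which encodes caveolin-1, and *Capza2*, an actin-capping subunit. The ratios of LuM1 over NM11 were 0.255 for *Cav1* and 0.669 for *Capza2*, so these neighbours, named after their values were seen, were also lower in LuM1 cells. Neighbours of other receptors did not always follow them. In LuM1 over Colon26 cells, *Hsd17b7* beside *Ddr2* was 9.35-fold higher and *Ier3* beside *Ddr1* 2.85-fold higher. *Gtf2h4*, on the other side of *Ddr1*, was 1.24-fold lower. *Cyp2s1* beside *Axl* was 9.03-fold lower, from a Colon26 spot in a cluster of spots bright on that array alone. A shared change of neighbours was not tested.

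The Met ligand is hepatocyte growth factor, a scatter factor that is secreted as an inactive chain and cut by serine proteases. *Hgf* was well above background in NM11 cells alone, where its 2 probes had scaled signals of 72.3 ± 8.47 and 76.1 ± 8.67. The level in NM11 cells was at least 2.74-fold above Colon26 cells and at least 3.59-fold above LuM1 cells with the brighter-ranked probe, whose spot lay in a cluster of spots bright on that array alone, and at least 2.88-fold and 3.78-fold with the other, whose spot did not. *Met* and *Hgf* thus both had their highest signal on the NM11 array.

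Of 12 genes for the proteases that cut growth factors or shed receptors and for their inhibitors, 9 were well above background on some array. In LuM1 cells 3 of 9 were at least 2-fold higher than in Colon26 cells and 1 was lower, 33.3% and 11.1% beside 13.1% and 11.8% of all genes, with a median log2 ratio of 0.66 beside -0.13. The number higher was 6 in the authors' processed values, 5 under the other detection rules and 2 after normexp correction. *Plau*, the urokinase plasminogen activator, had signals of 325 ± 33.0 in Colon26, 2537 ± 254 in LuM1 and 1427 ± 143 in NM11 cells. It was thus 7.82-fold and 4.40-fold higher in the sublines. *Plat*, the tissue plasminogen activator, was 2.25-fold higher in LuM1 and 1.77-fold higher in NM11 than Colon26 cells. *Spint1*, which inhibits the protease that activates HGF, was well above background in LuM1 cells alone (370 ± 37.3), at least 14.0-fold above Colon26 and 18.9-fold above NM11 cells. *Hpn*, the protease hepsin, rose well above background only in Colon26 cells (69.7 ± 9.16), with a bound of at least 3.46-fold lower in LuM1 cells. In NM11 cells *Plau* was the only 1 of 8 such genes at least 2-fold higher than in Colon26 cells and *Hpn* the only one lower, at least 3.56-fold. These shares were 12.5% each beside 8.34% and 7.89% of all genes. *Spint1* was the only 1 of 8 past 2-fold between the sublines, 12.5% higher in LuM1 beside 11.1%, although 4 were past 2-fold when scaled to *Hprt* or in the authors' processed values. *Hgfac* and *St14*, which encode HGF activator and matriptase, were well above background on no array.

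*Kit*, the stem cell factor receptor of mast cells and pigment cells, gave no level. Its probe (A_66_P128434) had scaled signals of 5.48 in Colon26, 4.19 in LuM1 and 4.01 in NM11 cells, and the software writes the error of such a spot in place of its signal. Of 6 mast cell markers, only *Tpsb2* was well above background. The ligand gene *Kitl* was measured on all 3 arrays, at 50.2 ± 7.35 in Colon26, 73.2 ± 8.40 in LuM1 and 463 ± 46.5 in NM11 cells. NM11 stood above both other lines, 9.23-fold over Colon26 (log2 3.21) and 6.33-fold over LuM1. The other 2 *Kitl* probes were well above background in NM11 cells alone, where they were at least 2.94-fold and 3.49-fold higher than in Colon26 cells.

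*Axl* belongs to the TAM receptors, which bind Gas6 and protein S and serve in the clearance of dying cells. Its brighter probe (A_66_P119852) had scaled signals of 79555 ± 7955 in Colon26, 45714 ± 4571 in LuM1 and 68515 ± 6852 in NM11 cells, and the other (A_65_P08024) 969 ± 97.1, 555 ± 55.7 and 845 ± 84.6. Both probes were lowest in LuM1 cells, 1.74-fold below Colon26 cells with each of them. The level in LuM1 cells was 1.5-fold and 1.52-fold below NM11 cells, a difference that vanished (log2 0.01) when scaled to *Hprt*. Between NM11 and Colon26 cells the ratios were 0.861 and 0.872 (log2 -0.22 and -0.20), close to the scanner error of 0.20.

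Of the ligands, *Gas6* was well above background on no array. *Pros1*, which encodes protein S, had signals of 196 ± 20.3 in Colon26, 4726 ± 473 in LuM1 and 1805 ± 181 in NM11 cells. Both sublines thus exceeded the parental line, 24.2-fold and 9.23-fold, and LuM1 exceeded NM11 by 2.62-fold. The second probe gave at least 18.7-fold, at least 7.15-fold and 2.62-fold. The order of the lines was that of *Pdgfra*. The other TAM receptors were both lower in LuM1 than Colon26 cells. With its brighter probe *Tyro3* had signals of 4731 ± 473, 2014 ± 201 and 1872 ± 187 in Colon26, LuM1 and NM11 cells. That was 2.35-fold lower in LuM1 and 2.53-fold lower in NM11, although in the authors' processed values the LuM1 difference was under 2-fold. The other *Tyro3* probe, A_52_P411629, was well above background on no array. *Mertk* was dim, at 55.6 ± 8.21 in Colon26 and 37.0 ± 5.72 in NM11 cells, and not well above background in LuM1 cells, at least 2.76-fold below Colon26 cells.

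*Fgfr1* was read by 4 probes, and all of them were lowest in Colon26 cells. The brightest (A_55_P2057777, RefSeq NM_010206) had scaled signals of 7959 ± 796 in Colon26, 14185 ± 1419 in LuM1 and 15214 ± 1521 in NM11 cells. The LuM1 over Colon26 ratios of the 4 probes ran from 1.66 to 2.0 and the NM11 over Colon26 ratios from 1.91 to 2.27, each beyond the scanner error. With the brightest probe they were 1.78 and 1.91, so the gene fell short of 2-fold. The mean over the probes was 2.08-fold for NM11, and the authors' processed values gave 2.43-fold for LuM1. Between the sublines the ratios of LuM1 over NM11 ran from 0.838 to 0.932, and that of the brightest probe turned to the higher side without scaling, after quantile normalization, when scaled to *Hprt* and in the processed values of the authors.

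*Fgfr2*, an FGF receptor typical of epithelia, was dim and its probes disagreed. Probe A_55_P2094881 had signals of 92.3 ± 10.8 in Colon26, 74.1 ± 8.58 in LuM1 and 129 ± 13.6 in NM11 cells. It was 1.74-fold lower in LuM1 than NM11 cells (log2 -0.80) and 1.40-fold higher in NM11 than Colon26 cells, although scaling to *Hprt* brought this last log2 ratio to 0.00. Probe A_52_P158800 was well above background in LuM1 cells alone, at 81.2 ± 9.36, at least 3.07-fold above Colon26 cells and at least 4.15-fold above NM11 cells. The first probe thus placed LuM1 lowest and the second placed it highest, and the mean over both probes, itself a bound, was at least 1.54-fold higher in LuM1 than NM11 cells. The exons they read were not analysed here.

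Of 15 FGF genes on the ligand list, 7 were well above background on some array. *Fgf7*, keratinocyte growth factor, which signals to the epithelial form of Fgfr2, had signals of 4134 ± 413 in Colon26, 48.7 ± 6.42 in LuM1 and 7974 ± 797 in NM11 cells. Its level in LuM1 cells was 85.0-fold below Colon26 cells (log2 -6.41) and 164-fold below NM11 cells (log2 -7.36). In NM11 cells it was 1.93-fold above Colon26 cells. *Fgf10*, which binds the same receptor form, was above the parental line in both sublines, so it opposed *Fgf7* in LuM1 but not in NM11 cells. Its signals were 172 ± 18.2, 934 ± 93.5 and 725 ± 72.7, 5.43-fold higher in LuM1 and 4.22-fold higher in NM11 cells. Its second probe gave at least 2.29-fold and at least 1.79-fold. *Fgf1* was 2.52-fold and 2.45-fold higher in LuM1 and NM11 cells with its brighter probe, from 53.8 ± 7.97 in Colon26 cells, but its other probe had ratios of 0.844 and 0.976. The LuM1 spot of the brighter probe lay in a cluster of spots bright on that array alone. *Fgf18* was 2.17-fold lower in LuM1 than Colon26 cells, from 57.2 ± 8.08 to 26.4 ± 5.02, near the lowest signal above background. *Fgf2*, *Fgf3* and *Fgf8* had signals between 22.7 and 50.4 with the brightest probe and differed by less than 2-fold. Of the proteins that assist or buffer FGF receptors, the decoy *Fgfrl1* was even, with ratios of 1.1 for LuM1 and 0.819 for NM11 over Colon26, and the klothos *Kl* and *Klb* were well above background on no array.

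*Igf1r*, the receptor of insulin-like growth factors, was measured by 2 probes that disagreed in direction. Probe A_55_P2736764 had signals of 5494 ± 549 in Colon26, 4480 ± 448 in LuM1 and 4891 ± 489 in NM11 cells, and probe A_51_P318365 had 917 ± 91.8, 1568 ± 157 and 1341 ± 134. The LuM1 over Colon26 ratio was 0.815 with the former and 1.71 with the latter, both beyond the scanner error, and the NM11 over Colon26 ratio 0.890 and 1.46. The mean of both probes gave log2 ratios of 0.24 and 0.19, so no direction can be given for the gene. *Igf1* was well above background in NM11 cells alone (85.6 ± 9.41), at least 3.24-fold above Colon26 and 4.25-fold above LuM1 cells, and *Igf2* on no array. *Igf2r*, which takes up and degrades IGF2, was 2.89-fold higher in LuM1 than Colon26 cells, with signals of 934 ± 93.6, 2696 ± 270 and 1070 ± 107 in Colon26, LuM1 and NM11 cells. The related insulin receptor gene *Insr* was even, with ratios of 0.904 and 0.914 over Colon26 cells.

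*Ddr1*, the collagen receptor kinase of epithelia, was lower in both sublines. Its probe (A_66_P116848, RefSeq NM_007584) had scaled signals of 503 ± 50.7 in Colon26, 271 ± 27.5 in LuM1 and 247 ± 25 in NM11 cells. The level was 1.86-fold lower in LuM1 (log2 -0.90) and 2.04-fold lower in NM11 cells (log2 -1.03) than in Colon26 cells, and the sublines lay 1.1-fold apart, within the scanner error. The NM11 value passed 2-fold narrowly and its ratio was 0.544 after normexp correction. The LuM1 spot lay in a cluster of spots bright on that array alone. Of the 10 colon epithelium markers, those well above background on each array were summed. The sum also fell, from 1123 in Colon26 to 422 in LuM1 and 362 in NM11 cells, through *Krt20* (651, 54.5 and 157) and *Cdx2* (443, 232 and 167). *Krt8* went the other way, 3.72-fold higher in LuM1 than Colon26 cells. *Epcam* was well above background in LuM1 cells alone, so that 4 of the 10 markers were detected in LuM1 against 3 in each other line. Its signal there, 28.0 ± 5.18, was near the lowest well above background, and its bound over Colon26 cells was only 1.06-fold. Their part in the *Ddr1* difference was not tested.

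*Ddr2*, the collagen receptor kinase of mesenchymal cells, was read by 3 probes with the same order of lines. The brightest (A_51_P267796) had signals of 5919 ± 592 in Colon26, 5495 ± 550 in LuM1 and 7595 ± 759 in NM11 cells. NM11 was 1.28-fold to 1.60-fold above Colon26 with the 3 probes, and LuM1 was 0.724 of NM11 with the 2 brighter probes and 0.591 with the dimmest, although with the brightest probe both of these directions turned when scaled to *Hprt*. LuM1 over Colon26 ratios of 0.928 to 0.985 lay within the scanner error.

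Of 6 collagen genes listed as DDR ligands, 5 were above background on some array, and they moved unequally. *Col1a2*, a chain of type I collagen, had signals of 59896 ± 5990 in Colon26, 49.6 ± 6.89 in LuM1 and 85275 ± 8527 in NM11 cells, a log2 ratio of -10.24 for LuM1 over Colon26. *Col1a1*, the other chain, had 4918 ± 492, 2247 ± 225 and 6045 ± 605 with its brightest probe, 2.19-fold lower in LuM1 than Colon26 cells. The fall of type I collagen mRNA in LuM1 cells was thus very unequal between its chains. *Col3a1* was 3.98-fold higher in LuM1 and 9.04-fold higher in NM11 than Colon26 cells, from a signal of 294 ± 29.9. *Col4a1*, of basement membrane collagen, was 3.92-fold higher in LuM1 than Colon26 cells and 4.89-fold higher than in NM11 cells. *Col2a1* was at least 4.91-fold higher in NM11 than Colon26 cells, at 130 ± 13.7.

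**Figure D3:**
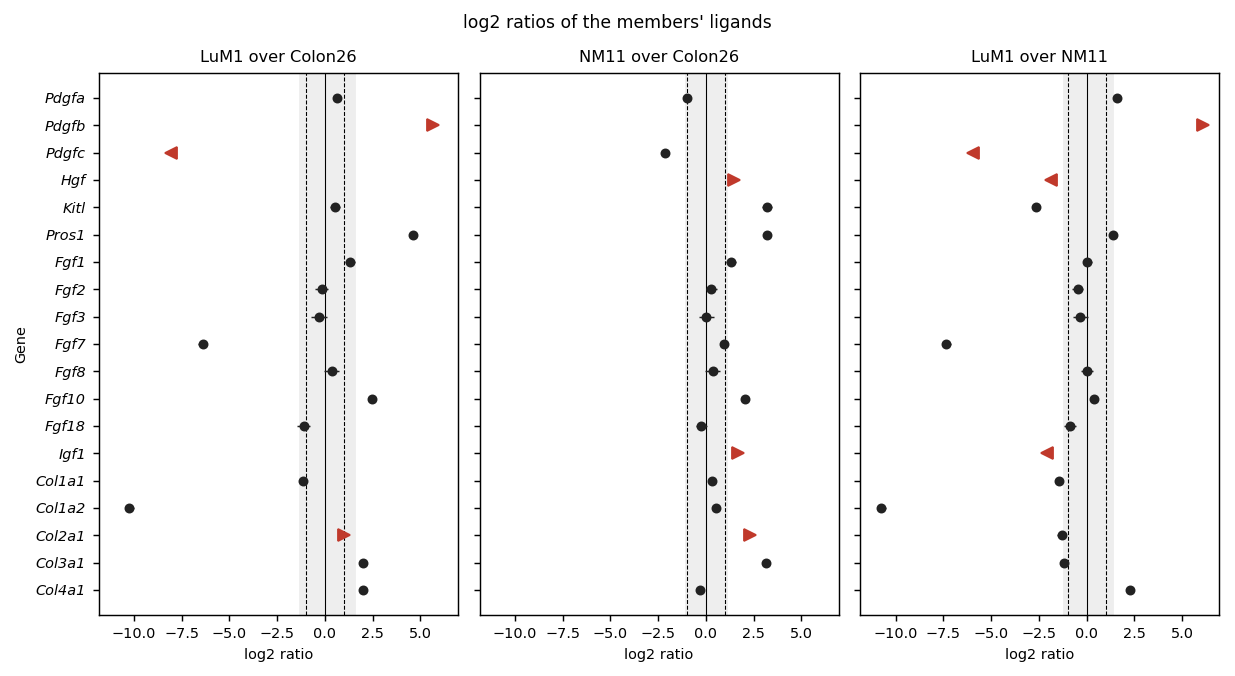
log2 ratios of the 19 ligand genes well above background on at least 1 array, brightest probe, 1 array per line. Points are measured ratios with the scanner error, arrows point away from 0 where the ratio is a bound, dashed lines are 2-fold and the grey band is the 5th to 95th percentile of all measured genes. *Pdgfc*, *Fgf7* and *Col1a2* lie far to the left in both comparisons of LuM1, and *Pdgfb* and *Pros1* to the right.

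Counted over the whole list, 19 of 31 ligand genes were well above background on at least 1 array. Of 17 with a ratio or bound, 6 were at least 2-fold higher and 5 at least 2-fold lower in LuM1 than Colon26 cells, 35.3% and 29.4% beside the 13.1% and 11.8% of all genes. In NM11 cells 8 of 18 were higher and 1 was lower than in Colon26 cells, 44.4% and 5.56% beside 8.34% and 7.89%. Between the sublines 4 of 19 were higher and 9 lower in LuM1 cells, 21.1% and 47.4% beside 11.1% and 8.5%. The median log2 ratios of the measured ligands were 0.45, 0.35 and -0.47, against -0.13, -0.02 and -0.11 over all genes. Over the alternatives 5 to 8 ligands were higher and 3 to 5 lower in the first comparison, 5 to 8 and 1 to 2 in the second, and 4 to 5 and 6 to 10 in the third. These counts describe the list and were not tested.

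The split of all genes into higher and lower depends on the scaling. Higher genes made up 52.5% of those past 2-fold between LuM1 and Colon26 but 77.7% in the authors' processed values, and 51.4% between NM11 and Colon26 but 20.1% when scaled to *Hprt*. Between LuM1 and NM11 they made up 56.6%, but 68.6% without scaling, 87.8% when scaled to *Hprt* and 81.4% in the authors' processed values.

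A further 30 receptor tyrosine kinases outside the EGF receptor and Eph receptor families were listed, and 14 of them were well above background on no array. Among the 14 were *Kdr*, *Flt4*, *Tek* and *Tie1* of endothelium and *Mst1r*, the closest relative of *Met*. In LuM1 cells 1 of 15 was at least 2-fold higher and 6 were lower than in Colon26 cells, 6.67% and 40.0% beside 13.1% and 11.8% of all genes. This lean depends on the scaling, since 3 were lower without scaling or when scaled to *Hprt*, and the authors' processed values had 3 higher and 2 lower. In NM11 cells 0 of 14 were higher and 5 were lower, 35.7% beside 7.89%, with 3 to 6 lower over the alternatives. Between the sublines 4 of 15 were higher in LuM1 and 3 lower, 26.7% and 20.0% beside 11.1% and 8.5%, with 2 to 5 higher and 0 to 4 lower over the alternatives. Their median log2 ratios were -0.11, -0.19 and -0.02.

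*Flt1*, which encodes a VEGF receptor that mostly traps its ligand, had the largest measured ratio of the list between the sublines. Its signals were 471 ± 47.5 in Colon26, 648 ± 65.0 in LuM1 and 47.6 ± 6.37 in NM11 cells, so NM11 lay far below the others, 13.6-fold under LuM1 and 9.90-fold under Colon26. Of 6 endothelial markers only *Pecam1* was above background, between 51.3 and 78.3. *Styk1*, a kinase-like membrane protein, fell in both sublines, from 378 ± 38.2 in Colon26 to 43.0 ± 6.28 in LuM1 and 104 ± 11.3 in NM11 cells, 8.78-fold and 3.62-fold. *Aatk*, a kinase of the lemur family, was well above background in LuM1 cells alone (237 ± 24.1) with its brighter probe. That was at least 8.99-fold above Colon26 and 12.1-fold above NM11 cells. The other *Aatk* probe, A_55_P2929634, was well above background on no array, LuM1 included. The *Aatk* relative *Lmtk3* was 3.56-fold higher in LuM1 than NM11 cells. *Alk*, a receptor of neural tissue, was 2.62-fold lower in LuM1 than NM11 cells, where its signal was 178 ± 18.3. The others past 2-fold in some comparison were *Tyro3*, *Mertk*, *Ntrk2*, *Fgfr3*, *Ryk* and *Ros1*, the last through a Colon26 spot that lay in a cluster of spots bright on that array alone.

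**Figure D4:**
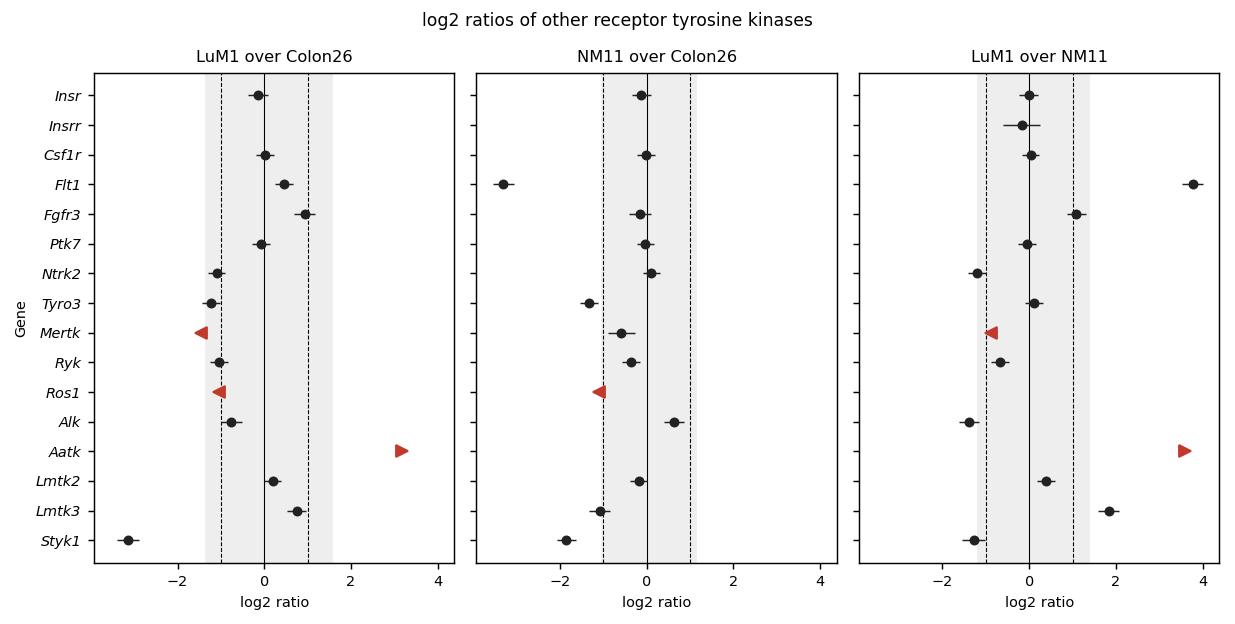
log2 ratios of the 16 further receptor tyrosine kinases well above background on at least 1 array, brightest probe, drawn as for the ligands. *Flt1* lies at -3.31 for NM11 over Colon26 and at 3.77 for LuM1 over NM11, *Styk1* lies left of the 2-fold line in each panel, and *Csf1r* and *Ptk7* stay near 0.

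Inside the cell, all 19 adaptor and signal-relay genes were well above background on at least 1 array. In LuM1 cells 3 of 19 were at least 2-fold higher and 3 lower than in Colon26 cells, 15.8% each beside 13.1% and 11.8% of all genes, and the median log2 ratio was 0.09. In the authors' processed values 7 were higher and 2 lower. In NM11 cells 3 of 19 were higher and 1 was lower (median 0.04), 15.8% and 5.26% beside 8.34% and 7.89% of all genes. Between the sublines 1 of 18 was higher in LuM1 and 3 were lower (median -0.03), 5.56% and 16.7% beside 11.1% and 8.5%. When scaled to *Hprt*, 5 were higher and 0 lower between the sublines. *Pik3r1*, the regulatory subunit of PI3-kinase, had signals of 116 ± 13.2 in Colon26, 548 ± 55.0 in LuM1 and 540 ± 54.1 in NM11 cells. Both sublines were thus higher, 4.73-fold and 4.66-fold, and *Pik3ca*, the catalytic subunit, was 2.04-fold and 2.17-fold higher. *Nck2*, an SH2 and SH3 adaptor that links receptors to actin, was 3.88-fold higher in LuM1 than in Colon26 and 4.93-fold higher than in NM11 cells, at 3869 ± 387. The adaptors of the IGF and insulin receptors diverged. *Irs1* was highest in NM11 cells, at 4445 ± 445 against 1370 ± 137 in Colon26 and 1824 ± 182 in LuM1 cells, whereas *Irs2* was lowest in LuM1 cells, 2.63-fold below Colon26. *Gab1*, a docking protein of Met, rose well above background only in Colon26 cells (55.9 ± 8.15), at least 2.78-fold over LuM1 and 2.86-fold over NM11 cells. The probes of *Crk* disagreed, 2.85-fold lower in LuM1 than Colon26 cells with the brighter and 1.43-fold higher with the other. The LuM1 spot of the brighter and the Colon26 spot of the other each lay in a cluster of spots bright on that array alone. *Grb2*, *Shc1*, *Sos1*, *Frs2* and *Ptpn11*, used by most receptors, differed by less than 2-fold in each comparison.

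Of 14 genes that dampen receptor signals, 12 were well above background on some array. In LuM1 cells 2 of 12 were at least 2-fold higher and 2 lower than in Colon26 cells, 16.7% each beside 13.1% and 11.8% of all genes, with a median log2 ratio of 0.60. The number higher was 7 in the authors' processed values, 4 after quantile normalization and 1 after normexp correction or with the mean over probes. *Ptpn6*, the phosphatase SHP-1 best known from blood cells, had signals of 143 ± 15.4 in Colon26, 948 ± 94.9 in LuM1 and 86.9 ± 9.66 in NM11 cells. LuM1 thus stood above the others, 6.63-fold over Colon26 and 10.9-fold over NM11. The 2 other probes gave 6.38-fold and 2.03-fold over Colon26, and 11.6-fold and 1.72-fold over NM11. Of 8 leukocyte markers *Ptprc*, *Adgre1* and *Spi1* were above background on no array. The summed signal of those well above background on each array was 17046 in LuM1 against 7034 in Colon26 and 6213 in NM11 cells. The rise in LuM1 over Colon26 cells was mainly in *Cd68* (172 to 5251), *Cd14* (1153 to 4175) and the brighter *Itgam* probe (5027 to 6818). *Lyz2* was above background in LuM1 alone (112) and *Csf1r* was even. The other *Itgam* probe was at least 3.15-fold lower in LuM1, from a Colon26 spot in a cluster. The part of these markers in the *Ptpn6* difference was not tested. *Grb14*, an inhibitor of the insulin receptor, fell from 1362 ± 136 in Colon26 to 27.3 ± 4.97 in LuM1 and 85.9 ± 9.47 in NM11 cells, 49.8-fold and 15.9-fold. The LuM1 spot of *Grb14* lay in a cluster of spots bright on that array alone. *Ptprf*, the phosphatase LAR, rose well above background only in Colon26 cells (107 ± 12.3), at least 5.33-fold over LuM1 and 5.48-fold over NM11 cells. *Ptprj*, a phosphatase that acts on Met and PDGF receptors, was 2.21-fold higher in LuM1 than Colon26 cells with its brighter probe and 0.839 with the other. In NM11 cells 0 of 12 were higher than in Colon26 cells and 2, *Ptprf* and *Grb14*, were lower, 0% and 16.7% beside 8.34% and 7.89% of all genes. Between the sublines 2 of 10 were higher in LuM1 and 1 was lower, 20.0% and 10.0% beside 11.1% and 8.5%, with 1 to 4 higher over the alternatives. *Cbl*, *Cblb*, *Ptpn1*, *Ptpn2*, *Lrig1* and *Sh2b3* stayed within 2-fold with their brightest probe.

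**Figure D5:**
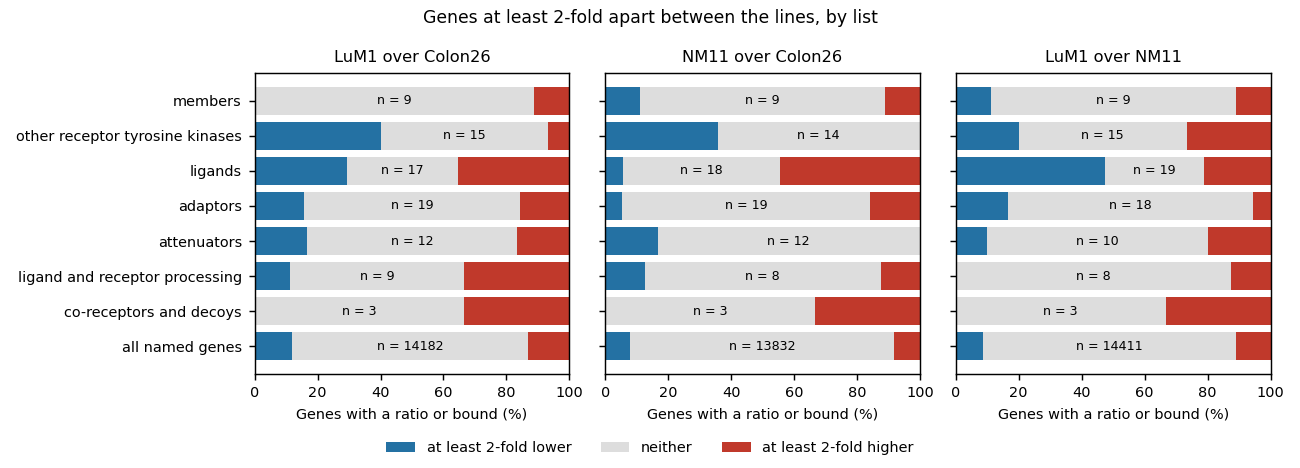
Share of genes at least 2-fold lower (blue) or higher (red) in each comparison, for the 10 receptors (members), the other lists and all named genes, among genes with a ratio or bound, whose number n is printed on the bar. The receptors have 1 of 9 higher in each panel, and the ligands have 35.3% higher and 29.4% lower in LuM1 over Colon26 against 13.1% and 11.8% of all genes.

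Of the 7 co-receptors and decoys, 3 were well above background. In each comparison 1 of the 3 was at least 2-fold higher, *Igf2r* in both comparisons of LuM1 and *Nrp1*, the PDGF and VEGF co-receptor neuropilin-1, in NM11 over Colon26 cells. That is 33.3%, beside 13.1% of all genes for LuM1 over Colon26, 8.34% for NM11 over Colon26 and 11.1% for LuM1 over NM11. In each, 0 were lower, beside 11.8%, 7.89% and 8.5%. With 3 genes such shares are coarse. The brightest *Nrp1* probe had signals of 940 ± 94.2 in Colon26, 1530 ± 153 in LuM1 and 2375 ± 238 in NM11 cells, 2.53-fold higher in NM11 than Colon26 cells, and scaling to *Hprt* brought this log2 ratio of 1.34 to 0.85. The probes disagreed in size and in part in direction: A_65_P18547 gave 2.37-fold, but A_52_P371237 gave 1.22-fold for NM11 and was 1.78-fold lower in LuM1 than Colon26 cells, where the brightest was 1.63-fold higher.

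Among the receptors only *Pdgfra* spanned at least 2 on the log2 scale over the 3 arrays. Of 12249 genes measured on all 3 arrays, those whose centred log2 signals lay nearest to its own were *Hfe*, at a distance of 0.16, *Pdpn* (0.17) and *Trp53inp2* (0.18), and 16 genes lay within 0.5. *Hfe*, the haemochromatosis gene, was 21.1-fold higher in LuM1 and 6.06-fold higher in NM11 than Colon26 cells. *Pdpn*, which encodes podoplanin, a membrane glycoprotein of lymphatic vessels and fibroblasts, was 18.4-fold and 6.86-fold higher. With 3 arrays such likeness describes these arrays only.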

How the data were processed

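Total RNA of Colon26, LuM1 and NM11 cells was hybridized to 1 single-colour mouse array each. The authors deposited Agilent Feature Extraction output (version 11.5.1.1 per the submitters' processing notes), which gives each spot's intensity after background correction and detrending, unscaled between arrays. A deposited table of processed intensities holds the same values multiplied by 1 constant per array (0.654, 0.829 and 0.706), and served as an alternative.

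Control and outlier spots were left out, and intensities were scaled to a common 75th percentile (581.1, 625.1 and 551.5 as deposited). Spots of 300 probes printed 10 times varied by a median SD of 0.035 to 0.040 on the log2 scale. Probes were named through RefSeq accessions in a gene table of GRCm38.p6, which named 32994 probes (58.3%). "Called" means past 2-fold. The text names all 10 receptors with every probe, the detected ligands and, from each other list, at most 6 genes past 2-fold, and other genes named were chosen after their values were seen. For each receptor spanning 2 on the log2 scale, the 3 nearest genes by distance of centred log2 signals are named. The members and lists were chosen with earlier results of these data known. Alternatives were 4 scalings, normexp correction by limma 3.58.1 (offset 50), the authors' table, 2 other detection rules, the mean over probes, outlier spots kept, and clustered spots left out (an 11 by 11 window with over 3 times the array's share of spots bright on that array alone). Scripts ran in Python 3.11.15 and R 4.3.3 and were tested on simulated data. Sequences come from RefSeq promoter tables, which held 8 of the 10 receptors.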

Additional observations from a re-analysis of the deposited data

How the results depend on the processing

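The counts of receptors past 2-fold took 66 values over 11 alternatives, and 58 equalled the count reported. The number at least 2-fold higher in LuM1 than Colon26 cells rose from 1 to 2, by *Fgfr1*, in the authors' processed values and after quantile normalization. The number higher in NM11 than Colon26 cells rose to 2 with the mean over probes, again by *Fgfr1*. The number lower in NM11 than Colon26 cells fell from 1 to 0, without *Ddr1*, after quantile normalization, after normexp correction and in the authors' processed values. It was also 0 with clustered spots left out, but there *Ddr1* had no value because its LuM1 spot was dropped, so that setting does not check the call. The number lower in LuM1 than NM11 cells rose to 2, by *Fgfr2*, after quantile normalization. Of 294 log2 ratios of receptors, 241 moved by less than the scanner error and 53 by more, and no ratio past 2-fold changed sign. Of 1253 ratios of the other named genes 285 moved and 2 turned: with clustered spots left out, *Fgf1* rests on its dimmer probe, with log2 ratios of -0.24 for LuM1 and -0.0347 for NM11 over Colon26. Of 396 counts over the lists, 60 moved by over 1.5 times or changed to or from 0. Relative to the 75th percentile, the median log2 ratio of all genes shifted by 0.45 for LuM1 over Colon26 and 0.41 for LuM1 over NM11 in the authors' processed values, by -0.49 for NM11 over Colon26 and 0.59 for LuM1 over NM11 when scaled to *Hprt*, and by 0.11 and 0.18 for LuM1 over Colon26 and over NM11 without scaling. Calls that fell under 2-fold in some of these were those of *Tyro3*, *Ntrk2*, *Ryk*, *Ros1*, *Fgfr3*, *Pik3ca*, *Hgf*, *Igf1*, *Fgf1*, *Fgf18*, *Col1a1*, *Col2a1*, *Col3a1*, *Gab1*, *Hpn*, *Plat*, *Ptprj*, *Grb14*, *Crk*, *Irs1*, *Irs2*, *Alk*, *Lmtk3*, *Styk1* and *Nrp1* in at least 1 comparison, and the cause was not tested. Dim probes limit *Fgfr2*, *Kit*, *Hgf* and *Igf1* most. No paired analysis was possible because each line has 1 array.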
